A study of Homo sapiens with 6 samples.

Results

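Chromatin accessibility was described at the loci of 4 growth genes, MYC, MYB, CCND2 and CCND3. Peaks were taken where they overlapped 4 hg19 windows, namely chromosome 8 from 127.5 to 131 Mb around MYC, chromosome 6 from 135.25 to 135.56 Mb around MYB, chromosome 12 from 4.36 to 4.43 Mb around CCND2 and chromosome 6 from 41.89 to 42.03 Mb around CCND3. The windows are fixed by coordinates and not by a measured value, but the members were chosen with earlier results of these data known. The windows held 1344 of the 718792 peaks in the series. Joined where they touched or overlapped, these made 241 of 130872 regions, of which 192 lay in the MYC window, 24 in the MYB window, 5 in the CCND2 window and 20 in the CCND3 window.

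ATAC-seq, in which a transposase inserts adapters into open chromatin, was done on 6 samples from 3 B-cell acute lymphoblastic leukaemia lines. In the sh2 sample of each line the histone methyltransferase NSD2 was knocked down with an shRNA, and in the NT sample of the same line a non-targeting control was used. The lines were RS4;11 (written RS411 below, as in the sample titles), SEM and RCH, with tissue given as bone marrow. Each sample came with 2 peak lists, treated here as 2 libraries of 1 sample, so the 3 lines are the only replicates and the spread between libraries may be technical. Growth notes describe the lines as cultured cells, and nothing says whether a knockdown culture was 1 clone or a pool, how long the shRNA had acted or how much NSD2 was left. Peak lists hold no RNA or protein, so neither the knockdown nor the B-cell identity of the lines was checked here.

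MYC is a transcription factor that drives growth and division, and it lies in a long gene-poor stretch whose flanks hold tissue-specific enhancers, among them elements inside the non-coding gene PVT1 and a far cluster on the CCDC26 side known to act in blood cells. MYB is a transcription factor of blood progenitors, with enhancers in the interval between it and HBS1L, a gene for a factor in ribosome rescue. CCND2 and CCND3 encode D-type cyclins, which activate CDK4 and CDK6 at the entry to the cell cycle, and cyclin D3 is needed for the expansion of B-cell precursors.

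Promoter sequences of MYB and CCND3 are given for their motif content. RefSeq on GRCh38.p14 gave 1 promoter for MYB and 3 for CCND3, each 300 bases, from 250 before the start to 50 after it, all on chromosome 6, and none was matched for CCND2. They are written 5′ to 3′ on the gene's strand, with matches to the searched motifs in capitals (GGGCGG for the GC box, CCAAT for the CCAAT box and CCGGAA for the ETS core, on either strand). The MYB promoter (135181058 to 135181357, plus strand) and the CCND3 promoters at the farthest upstream start (42048639 to 42048938, minus strand) and at the next start (41941759 to 41942058, minus strand) are shown because peaks lay at or near those starts. The sequences are on another build than the peaks, and the CCND3 promoters were paired with the far and near starts by their order alone. RefSeq puts these starts 106.9 kb apart, against 107.2 kb for the hg19 starts entered by hand, a gap wider than the printed 300 bases, so the printed bases are not shown to be those under the peaks.
MYB: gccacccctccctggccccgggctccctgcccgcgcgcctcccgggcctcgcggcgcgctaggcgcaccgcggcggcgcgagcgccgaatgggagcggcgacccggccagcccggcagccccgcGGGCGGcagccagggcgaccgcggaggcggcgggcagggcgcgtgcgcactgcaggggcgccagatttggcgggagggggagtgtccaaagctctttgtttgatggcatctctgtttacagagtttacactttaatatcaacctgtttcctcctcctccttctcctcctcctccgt
CCND3 far start: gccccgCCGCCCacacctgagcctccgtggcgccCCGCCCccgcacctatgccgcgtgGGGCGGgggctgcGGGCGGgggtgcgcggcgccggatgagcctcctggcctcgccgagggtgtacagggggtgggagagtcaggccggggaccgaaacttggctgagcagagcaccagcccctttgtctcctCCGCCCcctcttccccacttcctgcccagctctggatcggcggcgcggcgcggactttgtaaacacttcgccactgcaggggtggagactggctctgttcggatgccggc
CCND3 near start: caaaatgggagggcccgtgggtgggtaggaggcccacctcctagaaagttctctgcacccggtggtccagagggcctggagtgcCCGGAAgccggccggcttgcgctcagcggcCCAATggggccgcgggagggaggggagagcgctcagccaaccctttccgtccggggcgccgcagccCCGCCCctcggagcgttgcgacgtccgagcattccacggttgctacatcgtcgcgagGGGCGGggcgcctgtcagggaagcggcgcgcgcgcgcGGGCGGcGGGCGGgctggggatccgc
The GC box GGGCGG matched 1 time in the MYB promoter, 5 times at the far CCND3 start and 4 times at the near one, and 45.0% of all 35116 promoters of that length held it. The near CCND3 promoter also held 1 CCAAT, present in 34.6% of all promoters, and 1 ETS core CCGGAA, present in 17.2%. None of the 3 printed promoters held the E-box CACGTG (7.26% of all promoters), the RUNX core TGTGGT (13.1%), the E2F forms TTTCCCGC (1.63%), TTTGGCGC (0.652%) and TTTCGCGC (0.515%), or TATAAA (11.5%). Only these exact letters were searched, so other E2F forms may be present. GC content was 71.0% for MYB, 72.3% for the far and 73.7% for the near CCND3 promoter, against a median of 58.7% over all promoters.

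Lists held 41594 to 84794 peaks, 200 to 2937 bp wide, each with a value read as the authors' fold of signal over background. These folds are the authors' own, were not normalised between lists and are given as descriptions. The length of the lists differed between the shRNAs and in opposite directions between lines. RS411 averaged 62472 peaks with sh2 and 79519 with NT, a change of -21.4%. SEM averaged 63233 with sh2 and 54455 with NT, a change of 16.1%, and RCH averaged 42919 with sh2 and 56800 with NT, a change of -24.4%. The lists differed in length, so counts below were also taken from lists cut within a line to the length of its shortest list. That cut kept the peaks with the highest fold. The median fold of the longer lists was lower in RS411, at 6.67 and 6.81 with NT against 7.10 and 7.04 with sh2. In SEM the longer lists had the higher median, at 6.42 and 6.50 with sh2 against 6.29 and 6.25 with NT. RCH also had the higher median in its longer lists, at 6.08 and 6.11 with NT against 5.42 and 5.32 with sh2. Whether the cut removes the effect of list length was not tested.

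**Figure D1:**
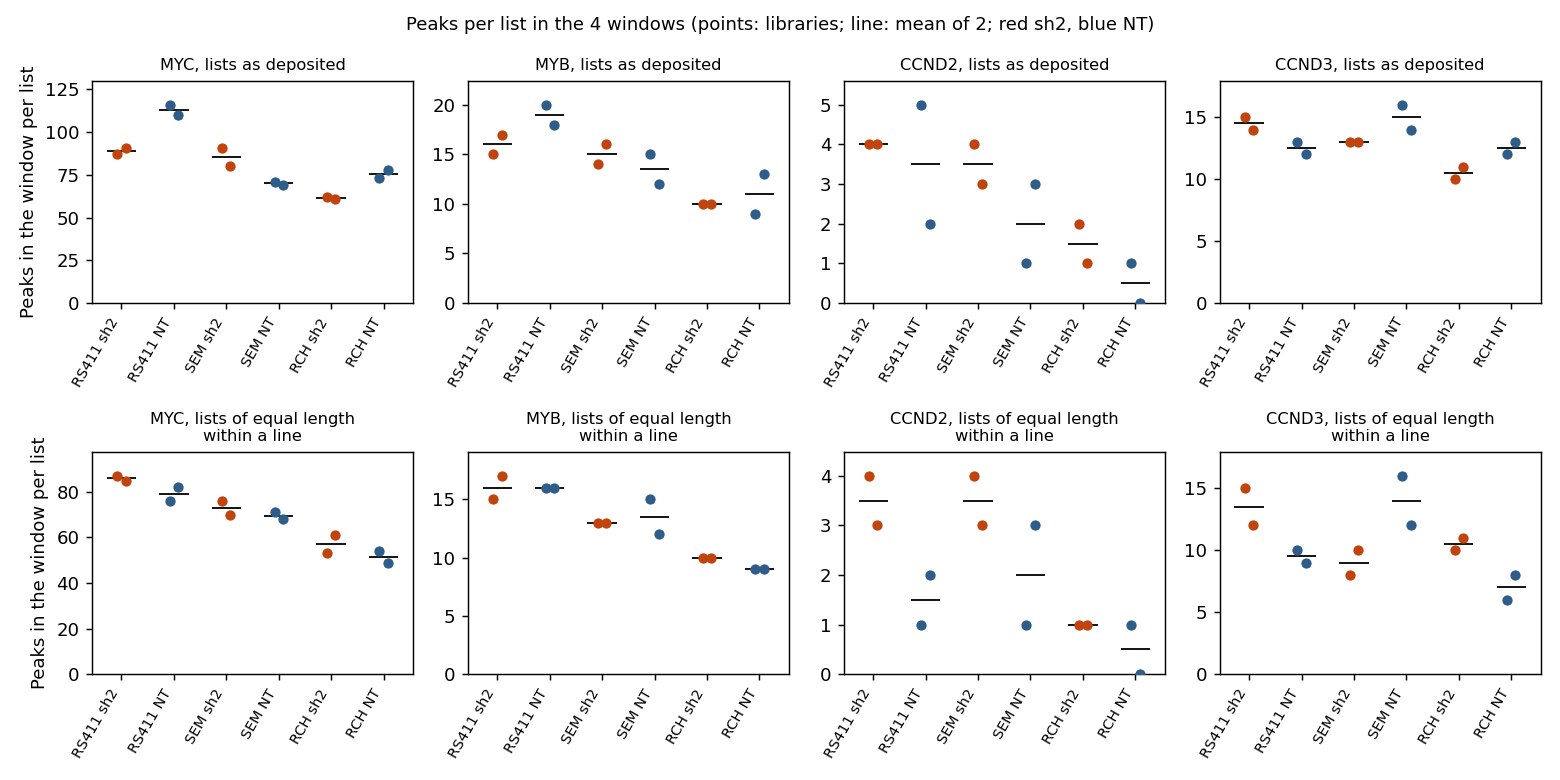
Peaks per list in each window, as deposited (top) and after the 4 lists of a line were brought to equal length (bottom). Points are the 2 libraries of a sample and the line is their mean; in the MYC window the sh2 points lie below the NT points in RS411 and RCH and above them in SEM, as deposited.

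The number of peaks in the MYC window moved in opposite directions in the lines. RS411 had 87 and 91 peaks with sh2, against 116 and 110 with NT. SEM had 91 and 80 with sh2, against 71 and 69 with NT, and RCH had 62 and 61 with sh2, against 73 and 78 with NT. The libraries of the 2 shRNAs did not overlap in any line, and the differences of sh2 minus NT were -24, 15.5 and -14 peaks in RS411, SEM and RCH. Their mean was -7.5 ± 20.5 (SD over n = 3 lines). An exact permutation of the signs of the 3 differences, two-sided, gave p = 0.75, and 3 lines cannot give less than 0.25. In percent these were -21.2%, 22.1% and -18.5%, beside the changes in list length above. As a share of the list, the window held 0.142% with sh2 and 0.142% with NT in RS411, 0.135% with sh2 and 0.129% with NT in SEM, and 0.143% with sh2 and 0.133% with NT in RCH. As a share of the chromosome 8 peaks, a measure added after the data were seen, it held 2.65% with sh2 and 2.48% with NT in RS411, 2.46% with sh2 and 2.45% with NT in SEM, and 2.45% with sh2 and 2.09% with NT in RCH. In lists of equal length the differences in the MYC window were 7, 3.5 and 5.5 peaks, with a mean of 5.33 (exact sign-flip p = 0.25, two-sided, the smallest possible), so the direction of the mean turned round.

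The MYB window had few peaks, and the shRNAs overlapped in SEM and RCH. RS411 had 15 and 17 peaks with sh2, against 20 and 18 with NT. SEM had 14 and 16 with sh2, against 15 and 12 with NT, and RCH had 10 and 10 with sh2, against 9 and 13 with NT. The mean difference of sh2 minus NT was -0.833 ± 2.25 peaks (SD over 3 lines, exact sign-flip p = 0.75), and 0.167 in lists of equal length. Without RS411 the mean over the remaining lines was 0.75 in the MYC window and 0.25 in the MYB window, both of opposite sign to the mean over all lines.

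In the CCND2 window sh2 averaged more peaks than NT in each line. RS411 had 4 and 4 with sh2, against 5 and 2 with NT, SEM had 4 and 3 with sh2, against 1 and 3 with NT, and RCH had 2 and 1 with sh2, against 1 and 0 with NT. The differences were 0.5, 1.5 and 1 peaks, with a mean of 1 ± 0.5 (SD over 3 lines, exact sign-flip p = 0.25, the smallest possible). These differences are within the gap between the libraries of 1 sample, which was 3 peaks in RS411 NT. Without RS411 NT library 2 the mean was 0.5 (exact sign-flip p = 0.75), and without RS411 NT library 1 it was 1.5. The CCND3 window had 15 and 14 peaks with sh2 and 13 and 12 with NT in RS411, 13 and 13 with sh2 and 16 and 14 with NT in SEM, and 10 and 11 with sh2 and 12 and 13 with NT in RCH. There the differences were 2, -2 and -2, with a mean of -0.667 ± 2.31 (SD over 3 lines, exact sign-flip p = 1). In RS411 and SEM the CCND3 number thus moved against the length of the lists. In lists of equal length its differences were 4, -5 and 3.5 peaks, with a mean of 0.833.

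The promoter of MYC was open in every library. A peak lay over the start in 12 of 12 lists, with folds of 6.79 and 6.68 with sh2 and 7.67 and 6.79 with NT in RS411, 5.41 and 5.51 with sh2 and 5.80 and 4.65 with NT in SEM, and 5.59 and 4.31 with sh2 and 6.16 and 6.50 with NT in RCH. Within their lists these peaks ranked between percentiles 20.3 and 59.0 of fold, so the MYC promoter was a middling peak and not one of the strongest. The start of PVT1, the neighbouring non-coding gene, was also covered in 12 lists, with folds of 5.44 to 12.

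At MYB the start was covered in 12 lists with folds of 4.80 to 8.58, between percentiles 24.5 and 74.1. The start of HBS1L, 126 kb upstream of MYB, had much stronger peaks, with folds of 12.9 to 20.7, between percentiles 97.1 and 99.8. At CCND3, whose starts were entered by hand and are approximate, 10 lists had a peak over the near start and the others had one within 20 bp of it. The far start was covered in 11 lists, and RS411 NT library 2 had a peak 2 bp away. Folds at the starts were 5.49 to 9.25 at the near and 3.52 to 6.17 at the far one in the lists that covered them.

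CCND2 differed from the other members in having no peak over its start in any of the 12 lists. The nearest regions ended 3.82 kb upstream and began 3.21 kb downstream, which left 7032 bp without a peak in any list (chromosome 12, from the last base 4379078 before it to the next peak base 4386111). No list in the series held a peak wider than 2937 bp, as a limit on width would leave them, so a broad open stretch at this start could be missing from the lists and no peak here does not show closed chromatin. The small regions on either side, 4.33 kb upstream and 3.36 kb downstream, were open in 8 and 7 lists. The 4.33 kb region had a peak in both sh2 and both NT libraries of RS411, in 2 sh2 and 1 NT libraries of SEM and in 1 sh2 and 0 NT libraries of RCH.

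**Figure D2:**
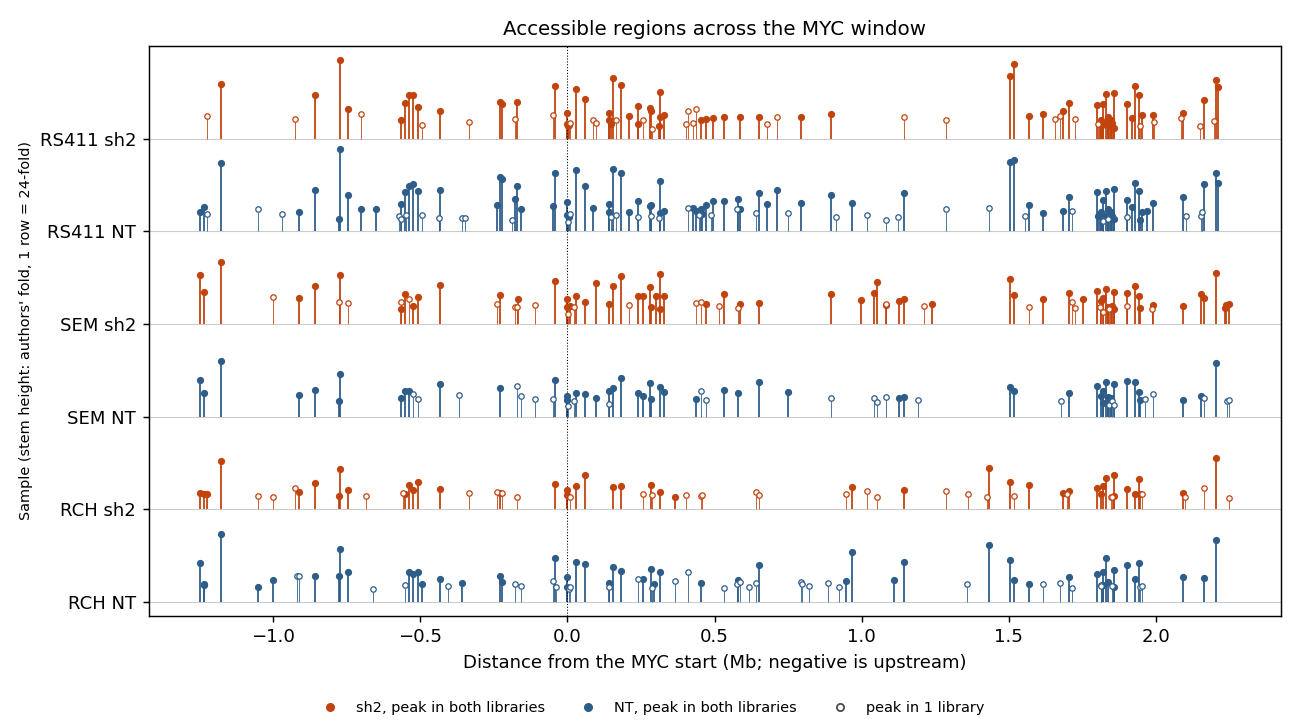
Regions of the MYC window in each sample by distance from the MYC start in Mb, with stem height giving the authors' fold (1 row is 24-fold) and open circles marking peaks in 1 library of the sample. Peaks crowd between 1.7 and 2 Mb downstream in all 6 samples, and the region 1432 kb downstream stands high in RCH.

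Distal accessibility at MYC spanned the whole window. In the 12 lists together, 25 of the 192 regions (13.02%) were open in all lists, and 53 (27.6%) were in 1 list. In the MYB window 7 of 24 (29.2%) were open in all lists, in the CCND2 window 1 of 5 (20.0%) and in the CCND3 window 8 of 20 (40.0%). Over the 4 windows that made 41 of 241 (17.0%), against 16.5% of all regions in the series. A share of 23.7% was in 1 list, against 28.3% in the series. The 4 loci together were thus near the background, with the MYC window below it and the MYB and CCND3 windows above it. The CCND2 share rests on 1 region, 47.4 kb from the start at the edge of the window.

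The highest regions away from the MYC start that were open in all lists included those where other genes are known to start. The one with the highest mean percentile of fold was 1178 kb upstream (chromosome 8, 127570270 to 127570995), where LRATD2 is known to start on hg19, which no annotation used here could check. Its folds were 14.4 and 13.9 with sh2 and 17.6 and 17.9 with NT in RS411, 16.9 and 15.2 with sh2 and 15.4 and 13.3 with NT in SEM, and 12.98 and 12.04 with sh2 and 18.5 and 16.6 with NT in RCH. The next lay 2204 kb downstream (chromosome 8, 130951437 to 130952728), where CYRIB is likewise known to start, with folds of 12.9 to 16.5. A region 771 kb upstream (chromosome 8, 127976554 to 127977244) was highest in RS411, at 21.6 and 19.0 with sh2 and 22.5 and 20.0 with NT, against 9.96 to 13.8 in the lists of SEM and RCH. Regions 1505 kb downstream, 41.0 kb upstream and 181 kb downstream completed the 6 that ranked highest.

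Inside the PVT1 side, from 100 to 500 kb downstream of MYC, the 3 strongest regions were 181, 154 and 313 kb away. The 181 kb region (chromosome 8, 128929041 to 128930520) had folds of 14.1 and 13.7 with sh2 and 16.5 and 13.9 with NT in RS411. It had 13.1 and 11.8 with sh2 and 8.45 and 11.7 with NT in SEM, and 6.25 and 5.56 with sh2 and 6.53 and 9.30 with NT in RCH. RS411 had the highest values, RCH had the lowest apart from 1 NT library, and the shRNAs overlapped in RS411. Of the 34 regions in this stretch, 14 were open in all 4 lists of RS411 (41.2%), 9 in those of SEM (26.5%) and 4 in those of RCH (11.8%). Over all regions of the series these shares were 35.6% in RS411, 28.9% in SEM and 21.4% in RCH, so the order of the lines is that of the whole series.

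The far stretch on the CCDC26 side, from 1.7 to 2 Mb downstream, was the most crowded, with 35 regions of which 8 were open in all 12 lists. All 4 libraries were open at 22 of them in RS411 (62.9%, against 35.6% of all regions), at 13 in SEM (37.1%, against 28.9%) and at 9 in RCH (25.7%, against 21.4%). Merged within each line, these numbers were 22 of 33 in RS411, 13 of 27 in SEM and 9 of 20 in RCH. In lists of equal length they were 12 of 29, 9 of 24 and 6 of 15. The matching shares on chromosome 8 were 44.6%, 45.2% and 31.6% as deposited, and 52.3%, 45.6% and 37.9% at equal length. As deposited the stretch was thus above the chromosome 8 share in each line. At equal length RS411 and SEM fell below that share and RCH stayed above it. The strongest regions of this stretch lay 1829.7, 1856 and 1943 kb downstream. The 1829.7 kb region (chromosome 8, 130577409 to 130578705) had folds of 11.2 and 11.9 with sh2 and 10.6 and 10.0 with NT in RS411, 8.99 and 8.98 with sh2 and 8.81 and 9.15 with NT in SEM, and 8.36 and 8.08 with sh2 and 11.7 and 11.0 with NT in RCH. The sh2 lists of RS411 (61551 and 63392 peaks) and of SEM (64200 and 62265 peaks) are close in length. Between 1.7 and 2 Mb the RS411 sh2 lists held 25 and 24 peaks and the SEM sh2 lists 22 and 20. From 100 to 500 kb they held 21 and 21 in RS411 sh2 and 15 and 13 in SEM sh2. The part of sequencing depth in these differences was not tested.

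**Figure D3:**
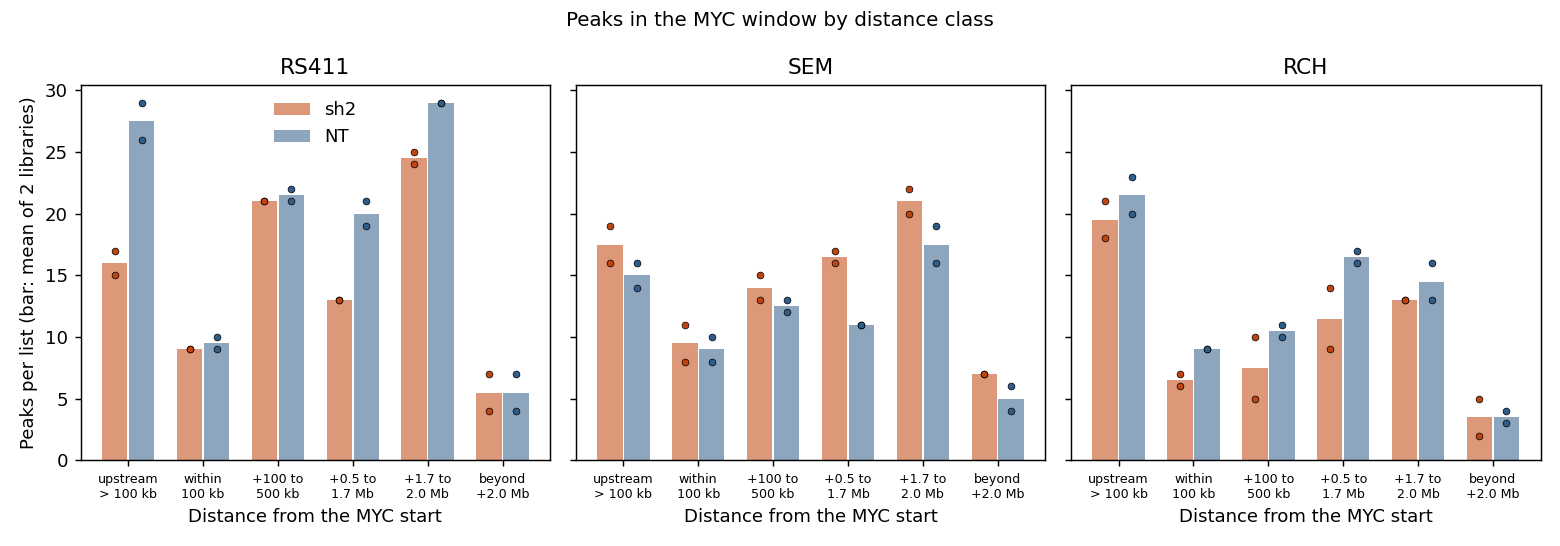
Peaks per list in the MYC window by distance from the MYC start, with sh2 left of NT in each line; bars are the mean of 2 libraries and points are the libraries. In RS411 the upstream flank averaged 16 with sh2 and 27.5 with NT, and the PVT1 side 21 with sh2 and 21.5 with NT, in lists of unequal length as deposited; at equal length the PVT1 side averaged 20 with sh2 and 15 with NT.

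The change in MYC peaks with sh2 was uneven along the window. The distance classes below were set after the peaks had been seen, and they are descriptions with no test. In RS411 the upstream flank beyond 100 kb averaged 16 peaks with sh2 and 27.5 with NT (-41.8%). In the same line the stretch from 100 to 500 kb downstream averaged 21 with sh2 and 21.5 with NT (-2.33%). The stretch from 500 kb to 1.7 Mb averaged 13 with sh2 and 20 with NT (-35.0%), and the stretch from 1.7 to 2 Mb 24.5 with sh2 and 29 with NT (-15.5%). In these lists of unequal length the upstream flank and the stretch from 500 kb to 1.7 Mb differed more in percent than the PVT1 and CCDC26 sides, and lists of equal length gave another picture.

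SEM, whose sh2 lists were the longer ones, had more peaks with sh2 in these stretches. From 500 kb to 1.7 Mb it averaged 16.5 with sh2 and 11 with NT (50%), from 1.7 to 2 Mb 21 with sh2 and 17.5 with NT (20.0%), and upstream 17.5 with sh2 and 15 with NT (16.7%). RCH averaged 11.5 with sh2 and 16.5 with NT from 500 kb to 1.7 Mb (-30.3%), 13 with sh2 and 14.5 with NT from 1.7 to 2 Mb (-10.3%), 19.5 with sh2 and 21.5 with NT upstream (-9.30%), and 6.5 with sh2 and 9 with NT within 100 kb (-27.8%). In lists of equal length the upstream flank averaged 16 with sh2 and 21 with NT in RS411 (-23.8%), 16.5 with sh2 and 15 with NT in SEM (10.0%), and 19 with sh2 and 15.5 with NT in RCH (22.6%), so the sign turned round in RCH. In RS411 the stretch from 100 to 500 kb then averaged 20 with sh2 and 15 with NT (33.3%), and the stretch from 500 kb to 1.7 Mb 13 with sh2 and 15.5 with NT (-16.1%). The stretch from 1.7 to 2 Mb averaged 24 with sh2 and 16.5 with NT in RS411 (45.5%), 11.5 with sh2 and 8 with NT in RCH (43.8%), and 15 with sh2 and 17.5 with NT in SEM (-14.3%), so there the direction turned round in each line. The SEM gain from 500 kb to 1.7 Mb was 16 with sh2 and 11 with NT (45.5%) at equal length.

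Regions with a peak in both libraries of 1 shRNA and in none of the other were few. The MYC window held 39 of these 48 regions (81.2%), beside 369 of all 481 regions of the windows merged within lines (76.7%). In RS411, 2 of the 189 regions in the 4 windows were sh2-only (1.06%, against 0.879% of all regions of the line) and 13 were NT-only (6.88%, against 9.68%). In SEM, 13 of 147 were sh2-only (8.84%, against 7.65%) and 5 NT-only (3.40%, against 2.61%). In RCH, 2 of 145 were sh2-only (1.38%, against 1.92%) and 13 NT-only (8.97%, against 10.5%). Each of these shares was within 1.5 times of that of the line as a whole. In lists of equal length the counts were 9 sh2-only and 8 NT-only of 157 in RS411 (5.73% and 5.10%, against 3.84% and 6.32% of all regions), 10 sh2-only and 10 NT-only of 142 in SEM (7.04% each, against 6.01% and 5.06%), and 9 sh2-only and 2 NT-only of 114 in RCH (7.89% and 1.75%, against 5.13% and 6.58%). Both RCH shares then differed from the line as a whole by over 1.5 times.

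These counts rest on few libraries. Shares over all regions of a line were not taken with a library left out. The counts below therefore say nothing particular about these loci. Leaving out 1 library lets a region count with 1 list of that shRNA, and RS411 then had 27 NT-only regions without NT library 1, 35 without NT library 2 and 20 without sh2 library 2. Its sh2-only count was 7 without NT library 1 and 11 without either sh2 library. SEM had 10 NT-only regions without either NT library and 9 without sh2 library 1. Its sh2-only count was 21 without either NT library, 20 without sh2 library 1 and 25 without sh2 library 2. RCH had 30 NT-only regions without NT library 1 and 27 without NT library 2, and 9, 12 and 14 sh2-only regions without NT library 2, sh2 library 1 and sh2 library 2.

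At MYC, RS411 had 1 sh2-only and 11 NT-only regions of 146, the NT-only ones making 7.53%, against 11.3% on chromosome 8. SEM had 12 sh2-only and 2 NT-only of 109, the sh2-only ones making 11.0%, against 8.52% on chromosome 8. RCH had 2 sh2-only and 11 NT-only of 114, the NT-only ones making 9.65%, against 11.2% on chromosome 8. The NT-only regions of RS411 with the highest fold percentile lay 578 and 968 kb downstream and 239 kb upstream. The 578 kb region (chromosome 8, 129325959 to 129326441 in RS411) had no sh2 peak in RS411, against folds of 9.33 and 7.51 with NT. It had no sh2 peak in RCH either, against 6.67 and 4.47 with NT. In SEM it had a fold of 4.14 in 1 sh2 library, against 5.05 and 6.98 with NT, so all 6 NT libraries and 1 of 6 sh2 libraries were open there. It was noticed after its values were seen, and no test was made of it.

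The 968 kb region (chromosome 8, 129715784 to 129716384) was NT-only in RS411, with folds of 7.88 and 6.97. RCH had it in all libraries, at 6.72 and 4.76 with sh2 and 13.1 and 12.9 with NT, and SEM had no peak there. The 239 kb region had folds of 8.38 and 5.35 in the NT libraries of RS411, and elsewhere a peak in 1 sh2 library each of SEM and RCH. In RCH the leading NT-only regions lay 1111 kb downstream (5.80 and 5.49) and 1001 kb upstream (4.79 and 6.33), followed by the 578 kb region. The 1111 kb region was in no list of another line.

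SEM had its leading sh2-only regions 299, 1753 and 1617 kb downstream, with folds of 7.14 and 7.41, 6.14 and 7.01, and 5.80 and 7.36. The first and second of these were in no other list, while the 1617 kb region was open in all 4 lists of RS411. NT-only in SEM were regions 750.3 and 1848 kb downstream. The sh2-only region of RS411 lay 149 kb downstream, with folds of 3.70 and 4.02, and those of RCH lay 1685 kb downstream and 1226 kb upstream. All of them were weak to middling, the highest being the 578 kb region of RS411 at a mean percentile of 63.0.

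**Figure D4:**
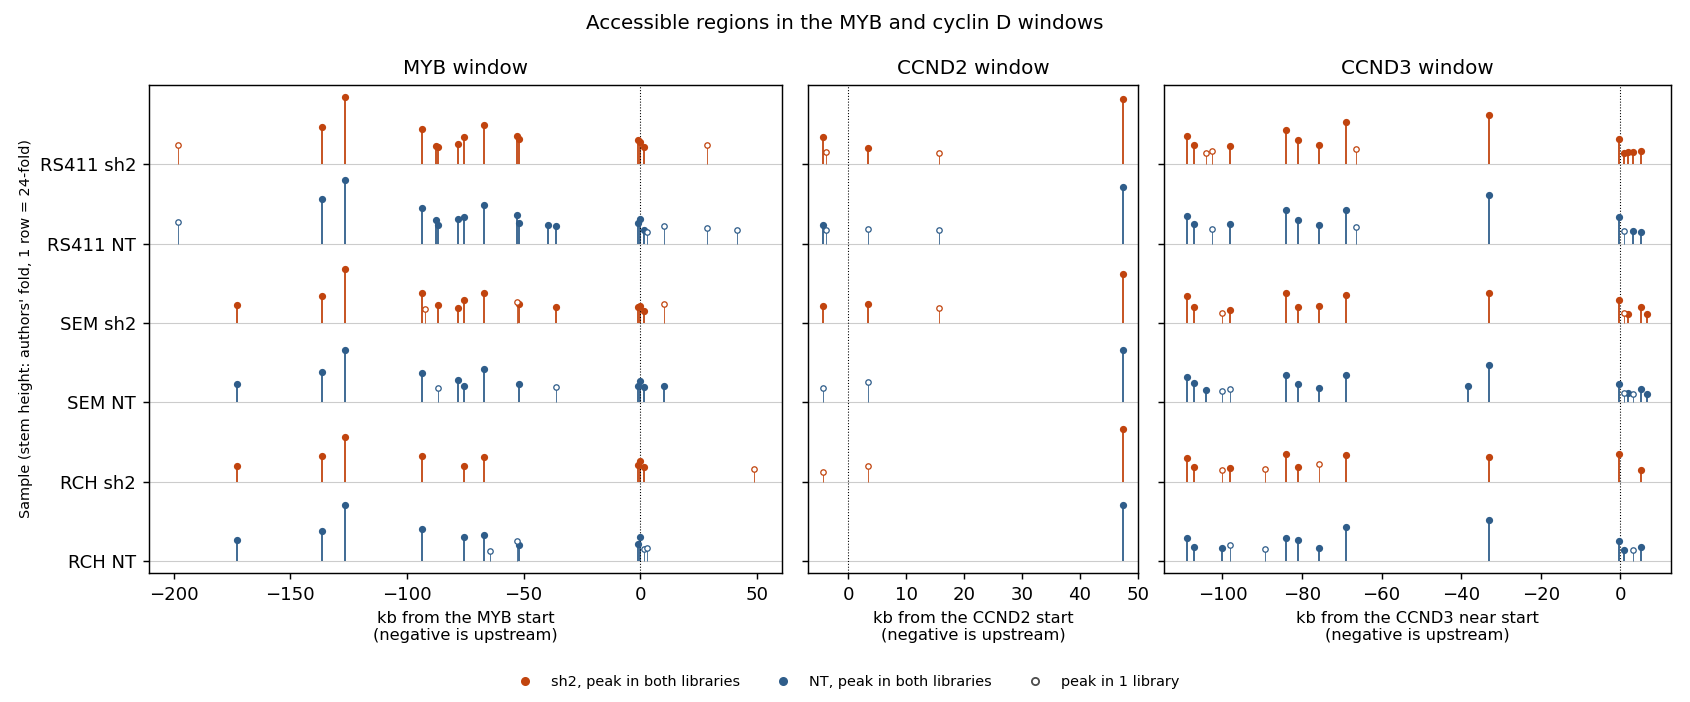
Regions of the MYB, CCND2 and CCND3 windows in each sample by distance from the gene start in kb, with stem height giving the authors' fold (1 row is 24-fold) and open circles marking peaks in 1 library of the sample. No stem stands at the CCND2 start, and RCH lacks several of the regions that RS411 has between 100 and 36 kb upstream of MYB.

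Between the starts of HBS1L and MYB, 126.5 kb apart, 12 regions lay more than 1 kb from both starts. All 4 libraries were open at 8 of them in RS411 (66.7%, against 35.6% of all regions), at 5 in SEM (41.7%, against 28.9%) and at 3 in RCH (25.0%, against 21.4%), in the line order of the whole series, and 3 were open in all 12 lists. The strongest of these, 66.8 kb upstream of MYB (chromosome 6, 135435115 to 135436223), had folds of 11.9 and 11.7 with sh2 and 10.9 and 12.7 with NT in RS411, 8.47 and 9.38 with sh2 and 9.26 and 10.7 with NT in SEM, and 7.88 and 7.30 with sh2 and 7.71 and 7.87 with NT in RCH. The folds of sh2 and NT were close in each line, and RS411 was highest. The others open in all lists lay 93.6 and 75.4 kb upstream. The interval was not counted in lists of equal length, and the part of list length in its shares was not tested. On the far side of the HBS1L start, inside HBS1L, the region 136 kb upstream was also open in 12 lists, with folds of 5.96 to 15.6.

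RS411 had 2 NT-only regions of 22 at MYB (9.09%, against 9.68% of all regions of the line), 39.4 and 36.2 kb upstream. The nearer one was also open in 2 sh2 and 1 NT libraries of SEM, and the 39.4 kb one was in no other line. RCH had 1 NT-only region of 14 (7.14%, against 10.5% of all regions of the line). It lay 52.0 kb upstream, and all libraries of RS411 and SEM shared it. In SEM the sh2-only region 172 kb and the NT-only region 173 kb upstream are neighbouring parts of 1 region of the 12-list merge, split where the peak edges fell, so they are not separate elements. Each was 1 of 17 regions in SEM (5.88%, against 7.65% sh2-only and 2.61% NT-only over the line). These MYB shares rest on 1 or 2 regions each.

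At CCND3 the 12 regions between the starts included 4 open in all 12 lists. The strongest, 32.9 kb upstream of the near start (chromosome 6, 41941881 to 41942678), had folds of 13.9 and 16.0 with sh2 and 16.6 and 12.6 with NT in RS411, 9.76 and 8.14 with sh2 and 11.6 and 11.3 with NT in SEM, and 7.90 and 7.19 with sh2 and 14.6 and 10.1 with NT in RCH. The sh2 libraries were below the NT libraries in SEM and RCH and overlapped them in RS411, in folds that were not normalised between lists. Regions 68.8 and 84.0 kb upstream were next, with folds of 7.43 to 14.1 and 5.87 to 10.9. RS411 had 1 sh2-only region of 16 (6.25%, against 0.879% of all regions of the line). It lay 2.03 kb downstream of the near start, with folds of 3.59 and 3.94, at a mean percentile of 5.30. All libraries of SEM shared that region. SEM had 2 NT-only regions of 17 (11.8%, against 2.61% of all regions of the line). They lay 38.3 and 104.2 kb upstream, and the 104.2 kb one was also open in 1 sh2 library of RS411. RCH had 1 NT-only region of 14 (7.14%, against 10.5% of all regions of the line), 0.843 kb downstream, at a mean percentile of 1.94. That one was also open in 2 sh2 and 1 NT libraries of RS411 and in 1 sh2 and 1 NT libraries of SEM. These CCND3 shares rest on 1 or 2 regions each.

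In the CCND2 window the one region open in all lists lay 47.4 kb downstream, at the edge of the window where TIGAR is known to start (chromosome 12, 4429815 to 4430862), with folds of 14.2 to 21.0. In RCH sh2 library 1 and RCH NT library 2 its peak began past the window's edge and was not counted in the window, which left 2 and 0 peaks in those lists. The distal regions of CCND2 were otherwise weak and open in 2 to 8 lists.

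**Figure D5:**
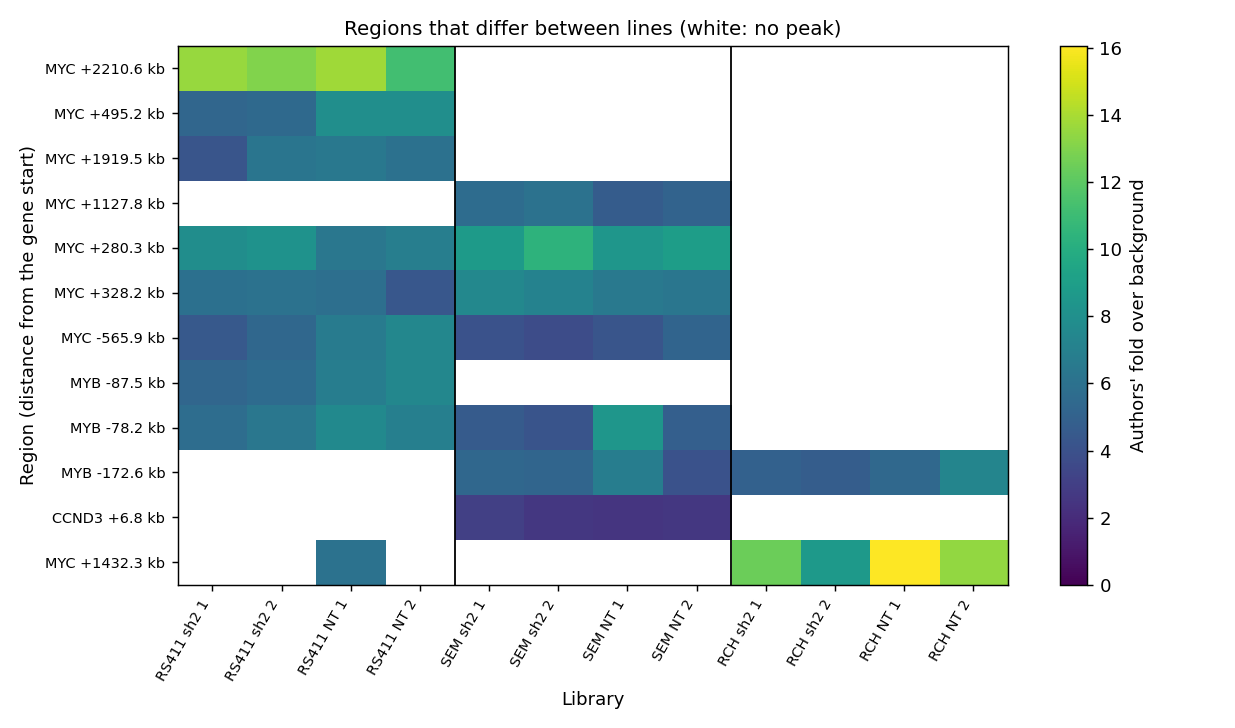
Regions that differ between lines, by distance from the gene start, with the authors' fold in each library as colour and white for no peak. The rows are regions named in the text, and RCH is white in all of them except the MYB region 173 kb upstream and the MYC region 1432 kb downstream.

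Some regions were open in every library of 1 line and in none of the others. They numbered 5 for RS411 (2.07% of the 241 regions, against 2.03% of all regions), 2 for SEM (0.830%, against 0.957%) and 0 for RCH (against 0.889%). RS411 and SEM shared 6 regions absent from RCH (2.49%, against 1.44%), SEM and RCH shared 1 absent from RS411 (0.415%, against 0.355%), and RS411 and RCH shared 0 absent from SEM (against 0.426%). The share for RS411 alone was near the background, while that for RS411 and SEM without RCH was above it and that for RCH alone below it, on counts of 6 and 0 regions. Without RS411 sh2 library 1 the number open only in RS411 was 9. Without RS411 NT library 1, RCH NT library 1 or RCH sh2 library 1 the number open only in RCH was 1. No share over all regions was taken with a library left out.

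The strongest of the RS411 regions lay 2211 kb downstream of MYC (chromosome 8, 130958656 to 130959156), close to the 2204 kb region where CYRIB is known to start. It had folds of 13.6 and 13.03 with sh2 and 13.8 and 11.2 with NT, at a mean percentile of 85.7, and no list of SEM or RCH had a peak there. Others lay 495 kb downstream, with 5.33 and 5.52 with sh2 and 7.95 and 7.96 with NT, and 1919 kb downstream. At MYB, RS411 had a region of its own 87.5 kb upstream (chromosome 6, 135414809 to 135415127), with folds of 5.29 and 5.61 with sh2 and 6.82 and 7.45 with NT.

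SEM had a region of its own 1128 kb downstream of MYC, with folds of 5.65 and 6.08 with sh2 and 4.66 and 5.14 with NT. Its other one lay 6.85 kb downstream of the near CCND3 start, with folds of 2.49 to 3.02, at a mean percentile of 0.382 in its lists. RS411 and SEM, but not RCH, had regions on the PVT1 side 280 and 328 kb downstream of MYC. The 280 kb region (chromosome 8, 129028112 to 129029031) had folds of 7.90 and 8.18 with sh2 and 6.36 and 6.85 with NT in RS411, and 8.75 and 10.4 with sh2 and 8.41 and 8.95 with NT in SEM. Both lines also had a region 566 kb upstream of MYC and one 78.2 kb upstream of MYB. The region 173 kb upstream of MYB (chromosome 6, 135329516 to 135330094) was open in SEM and RCH, with folds of 4.04 to 7.34, and in no list of RS411.

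RCH stood apart at 1 region of the MYC window, chosen after its values were seen, 1432 kb downstream. It had folds of 12.5 and 8.69 with sh2 and 16.1 and 13.5 with NT in RCH, and none in SEM. RS411 had a peak there with a fold of 6.08 in 1 NT library, so it did not count as open only in RCH. The sh2 lists of RCH were the shortest of all, at 44244 and 41594 peaks, and the part of list length in the regions absent from RCH was not tested.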

How the data were processed

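ATAC-seq peak lists came from 6 samples, 3 lines each with sh2 or NT, with 2 lists per sample. Nuclei were tagmented and the libraries amplified by PCR, per the labels' protocols. Bowtie2, MACS2 and hg19 are named in the submitters' processing notes; their versions and settings, and any duplicate removal or transposase shift, are not given in the sources, and depth is unknown. The authors' deposited value per peak was taken to be a fold, that is a ratio over background. This reading is inferred from the values. Per list, 9.13% to 24.8% of them were whole multiples of 1 step (tolerance 0.0002). The step was chosen in each list to make that share largest, and no chance share was taken. The share therefore does not settle the reading. Libraries were numbered by file order within a sample.

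Chromosomes 1 to 22 and X were kept, which dropped 140 peaks. Peaks that touch or overlap were merged over 12 lists, or over the 4 lists of a line for sh2-only and NT-only classes, and a list was open with an overlap of at least 1 bp. Distances run from a region's midpoint to an hg19 start entered by hand from general knowledge, not read from an annotation; peaks lay at all of them except CCND2. Promoters and neighbouring genes came from RefSeq on GRCh38.p14, and no coordinates were converted. Peak numbers were compared as the mean of 2 libraries, paired by the line named in the titles, with an exact permutation of signs across lines, two-sided, and the rest is description. The work was done with pandas 2.3.3 and numpy 2.4.6 in Python 3.11.15, and plots with matplotlib 3.10.9. The merging and classes were tested on simulated lists.

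Named regions were those at gene starts, the 6 (MYC) or 3 (other genes) strongest distal regions open in 12 lists by mean percentile of fold, all sh2-only and NT-only regions or the 3 strongest where a class held over 6, the 3 strongest open only in 1 line, and the 3 strongest of the far MYC stretches. Regions shared by 2 lines and missing from the third were named by the same ranking, chosen after the data were seen. The members and lists were chosen with earlier results of these data known. Alternatives were lists of equal length, peaks above the pooled median fold of 6.37, a cover of 50%, no other peak within 1 kb, and leaving out a library or a line. Cell-cycle partner genes were not analysed here.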

Additional observations from a re-analysis of the deposited data

Results flagged for a closer look

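The lines moved in opposite directions in 2 windows. No test of the difference between lines was made. In the MYC window sh2 minus NT was -24 peaks in RS411 and -14 in RCH, where both sh2 libraries had fewer peaks than both NT libraries, and 15.5 in SEM, where both had more. The lists as a whole changed by -21.4% in RS411, -24.4% in RCH and 16.1% in SEM, and in lists of equal length the 3 lines had 7, 5.5 and 3.5 more peaks with sh2. For peaks above the pooled median fold, sh2 minus NT in the MYC window was -12 in RS411, -20 in RCH and 10.5 in SEM. In the CCND3 window sh2 minus NT was 2 peaks in RS411, where both sh2 libraries were above both NT libraries, and -2 in SEM and -2 in RCH, where both were below. In lists of equal length these were 4, -5 and 3.5, so RCH changed sign there. The part of list length in these differences was not tested.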

How the results depend on the processing

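Of 165 alternative values for 13 results, 121 kept the direction of a mean difference or stayed within 1.5 times of a count, 36 counts moved by more, 3 mean differences became 0 and 5 changed sign. Lists of equal length turned the mean peak difference of sh2 minus NT to 5.33 at MYC, 0.167 at MYB and 0.833 at CCND3, and leaving out RS411 turned it to 0.75 at MYC and 0.25 at MYB. The CCND3 mean was 0 for peaks above the pooled median fold, without SEM and without RCH. The CCND2 mean kept its sign under every alternative run, from 0.167 for peaks above the pooled median fold to 1.5. Equal length also moved NT-only counts in the 4 windows to 8 in RS411, 10 in SEM and 2 in RCH, and sh2-only counts to 9 in RS411 and 9 in RCH. Peaks above the pooled median fold gave 2 NT-only regions in SEM, 0 sh2-only in RCH, and 3, 0 and 1 regions open only in RS411, SEM and RCH. With 12 lists of 1 length, 1 region was open only in RS411 and 1 only in RCH, and a cover of 50% gave 2 only in RCH. No other peak within 1 kb left 0 sh2-only regions in RS411. Leaving out 1 library gave NT-only counts of 17 to 35 in RS411, 7 to 10 in SEM and 17 to 30 in RCH, sh2-only counts of 2 to 11, 20 to 25 and 2 to 14, and 5 to 9 regions open only in RS411 and 0 to 1 only in RCH. The causes were not tested. Shares over all regions were taken only as deposited and for lists of equal length within a line. The other counts here have no such share beside them. Pairing by line is the design itself; no separate paired analysis was possible because each line has 1 sample of each shRNA. The exact sign-flip test over 3 lines cannot give a p under 0.25, depth is unknown, and an absent peak is not shown to be closed chromatin.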
